A study of Nicotiana tabacum with 36 samples.

Results

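Leaves of the tobacco cultivar Yanyan97 (YT) kept for 2 h at 4 °C were compared with YT leaves taken before cold (0 h). The members of this comparison were chosen by group label, as the 3 YT 2 h libraries and the 3 YT 0 h libraries, which are 6 of the 36 RNA-seq libraries of the series, and all genes were kept. The series followed YT and a second cultivar, Taiyan8 (TT), through 0, 0.5, 1, 2, 4 and 8 h of cold, with 3 libraries in each of 12 groups. YT was used as the cold-resistant cultivar and TT as the cold-susceptible one, and no transgene or mutation separated the groups. All groups shared *Nicotiana tabacum* seedlings at the five-leaf stage, raised on Murashige and Skoog medium under 16 h of light and 8 h of dark. Per the labels the incubator stood at 22 °C by day and 20 °C by night, whereas the study's methods give warmer settings. The tissue field of the labels reads seedlings, but the treatment description and the methods say that leaves were harvested. The libraries of a group are described as biological triplicates, without a record of how many plants each held. Plants held at growth temperature for 2 h are not among the groups, so that cold and the time of day at harvest cannot be told apart.

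Chilling of a leaf is known to stiffen membranes and to raise calcium in the cytosol, which calcium-dependent and other protein kinases pass on. In Arabidopsis this signalling leads within hours to transcription of the C-repeat binding factors (CBF, also named DREB1), activators of the AP2-EREBP family that bind the C-repeat element in promoters of cold-regulated genes. Abscisic acid, GRAS and WRKY transcription factors and remodelling of the cell wall are further known branches of the cold response. Tobacco is an allotetraploid, so that many genes exist as near-identical copies from its parental genomes. The counting command in the file headers leaves out reads that fit several places, and the values of such copies are therefore uncertain. The same command does not use strand, so that reads of overlapping genes on opposite strands cannot be told apart.

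The results below turn on NtCBF2, a tobacco CBF gene that the study later disrupted by genome editing, and on COBL7 and PAT1, further genes of the cold response that it measured by RT-qPCR. The sequences below were used by the study for these genes, and whether each fits only a single gene copy was not tested. They were taken from the study's primer table, 5′ to 3′, and the capitals mark the protospacer-adjacent motif of the editing target.
NtCBF2 target site: ataaccccaagaagcgggcaGGG
NtCBF2 forward primer: agtagctcgggctaaatgcaa
NtCBF2 reverse primer: acttgcgcgcacttatttca
COBL7 forward primer: aatcgctcctcgttcactcc
COBL7 reverse primer: gctgctgtatcgggtagcaa
PAT1 forward primer: gcaacttcatcacacccctg
PAT1 reverse primer: gttccaccctttccttgccc

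The YT 2 h libraries held between 23223507 and 24767449 counted reads, and the YT 0 h libraries between 23857897 and 25405926. Over all 36 libraries the range was 15484160 to 26691552. In a principal component analysis of the 6 libraries, the first component took 51.49% of the variance, with the YT 2 h libraries at 48.66, 65.01 and 73.02 and the YT 0 h libraries at -64.01, -51.95 and -70.73. Replicates of both groups differed by more than the sampling noise of their counts. The RNA came from whole leaves, in which fewer cells of a type and less RNA per cell cannot be told apart. Leaf marker genes were not analysed here, since the sources used here do not pair their names with the gene IDs.

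After 2 h of cold, 1142 of the 23740 genes tested had risen in YT (4.81%) and 737 had fallen (3.1%), together 7.91%. A gene was called where its log2 fold change of YT 2 h over YT 0 h was beyond 1 in either direction and its Benjamini-Hochberg adjusted p in edgeR's quasi-likelihood test was under 0.05. The change exceeded 4-fold for 422 of the risen genes and 240 of the fallen ones, and 32-fold for 42 and 33. Of the 1879 called genes, 1833 had non-overlapping libraries, against 36.8% of all genes tested. The median log2 fold change over all genes was -0.02. Genes that had risen took 13.7, 12.6 and 15.3% of the counts in the YT 2 h libraries, and 4.05, 4.26 and 3.97% in the YT 0 h libraries. For fallen genes these shares were 1.95, 1.46 and 1.68% at 2 h and 4.84, 4.34 and 5.73% at 0 h. Part of the largest fold changes belonged to genes near zero: 39 of the risen genes had no more than 3 counts in any YT 0 h library, and 38 of the fallen ones had no more than 3 counts in any YT 2 h library. The limma test on log2(TPM + 1) called 834 genes higher and 871 lower, which puts the larger number on the other side.

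**Figure D1:**
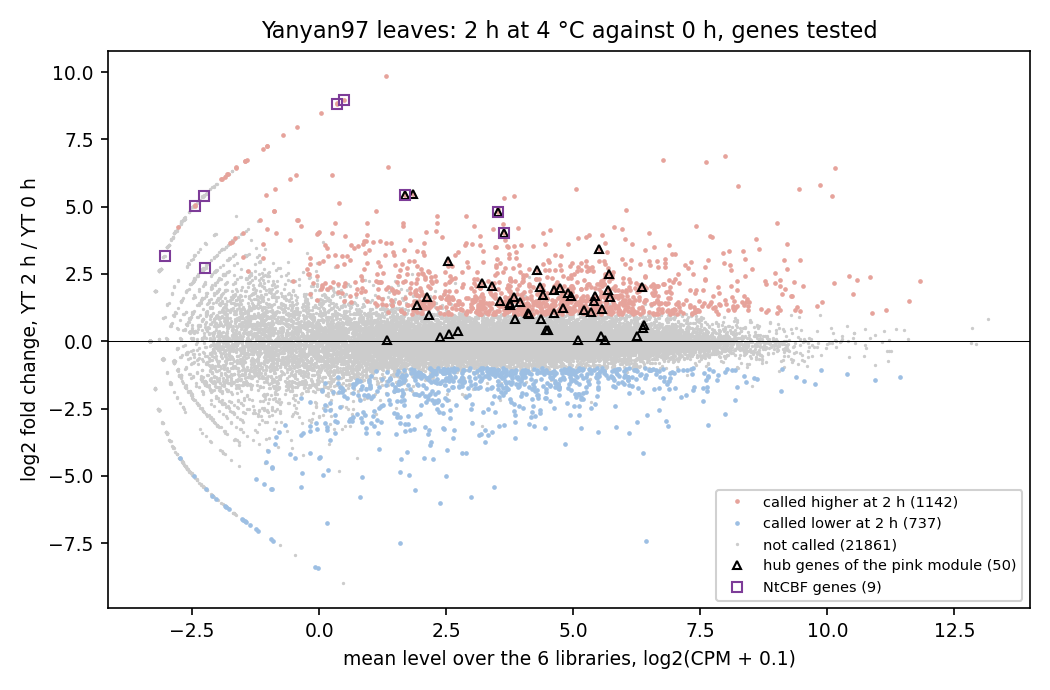
Each point is 1 of the 23740 genes tested, with its mean level over the 6 libraries on the x axis, as log2(CPM + 0.1), and its log2 fold change of YT 2 h over YT 0 h on the y axis. The 1142 genes called higher lie above 1 and the 737 called lower lie below -1, and the 50 hub genes of the pink module and the 9 NtCBF genes, drawn as open symbols, all lie above 0.

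Transcripts of the CBF genes were near zero in YT before cold, and those of NtCBF2, NtCBF3, NtCBF5, NtCBF10 and NtCBF21 were present in every YT 2 h library. The study named 21 NtCBF genes on 15 gene models of the Nitab-v4.5 genome, of which 9 models were in the count files and 6 were not analysed here. All 9 passed the filter on low counts, and 6 were called higher and none lower, beside 4.81% and 3.1% of all genes. DESeq2 called 7 higher and 0 lower, and 0 had an unadjusted p under 0.05 for a fall in edgeR. The 9 fitted log2 fold changes had a median of 5.04, or of 4.01 when the 6 genes without counts above the floor at 0 h were set to their lower bounds. The names follow known CBF/DREB proteins that the study aligned to the tobacco proteins. Levels below are CPM, that is counts scaled to a common TMM-adjusted library total, and 3 counts, the floor used for a gene without reads, correspond to 0.111 CPM at 0 h.

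NtCBF2 (Nitab4.5_0001083g0010) lies on chromosome 4, from 55301495 to 55302151 on the minus strand, as a single exon. It had 26.8, 18.6 and 20.1 CPM in the YT 2 h libraries, against 0.381, 1.76 and 0.151 CPM in the YT 0 h libraries. Every 2 h library was far above every 0 h library, and the fitted change was 27.9-fold (log2 fold change 4.80 ± 0.84, SE; adjusted p = 0.000103). Its neighbour NtCBF3 (Nitab4.5_0005990g0020, chromosome 4, 55165949 to 55166602, minus strand) had 8.98, 4.36 and 4.91 CPM at 2 h, against 0.0763, 0.317 and 0 CPM at 0 h. The groups again did not overlap, with a log2 fold change of 5.44 ± 1.13 and an adjusted p of 0.000827. NtCBF5 (Nitab4.5_0002394g0010, chromosome 6, 99170480 to 99171139, plus strand) had 30.7, 18.3 and 20.7 CPM at 2 h and 0.534, 2.46 and 1.28 CPM at 0 h. Its log2 fold change was 4.01 ± 0.75 (adjusted p = 0.000233), and the groups did not overlap. For these 3 genes the first YT 2 h replicate was the highest of the 3, and for all of them the second YT 0 h replicate was the highest before cold.

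NtCBF10 (Nitab4.5_0002419g0050, chromosome 6, 95458780 to 95459427) had 88, 35 and 50 counts in the YT 2 h libraries and no count in any YT 0 h library. Set against the floor of 3 counts per library, this was at least 21.1-fold higher (adjusted p = 7.36e-05). NtCBF21 (Nitab4.5_0001200g0100, chromosome 15, 111401608 to 111402357) had 57, 67 and 67 counts at 2 h and none at 0 h, at least 23.4-fold higher (adjusted p = 0.0165). Before cold neither gene was detectable at this depth. The call of NtCBF21 was lost when any of the YT 0 h libraries was left out, with adjusted p of 0.0566, 0.0564 and 0.0585 without replicates 1, 2 and 3. Limma on log2(TPM + 1) did not call NtCBF21 either (adjusted p = 0.066). The gene model shared by NtCBF9, NtCBF13 and NtCBF14 (Nitab4.5_0002419g0020) had 6, 0 and 6 counts at 2 h and none at 0 h, at least 1.51-fold higher (adjusted p = 0.0474). This call too was lost without any 1 of the YT 0 h libraries (adjusted p from 0.115 to 0.12) and without YT 2 h replicate 1 or 3 (0.121 and 0.143). With limma the log2 fold change of this model was 0.21 (adjusted p = 0.789). The other 3 models did not pass the test. NtCBF11/12 had 0, 0 and 3 counts at 2 h and none at 0 h, NtCBF17 had 2, 1 and 12 counts at 2 h and none at 0 h, and NtCBF19 had 0, 4 and 10 counts at 2 h, against 0, 2 and 0 at 0 h.

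**Figure D2:**
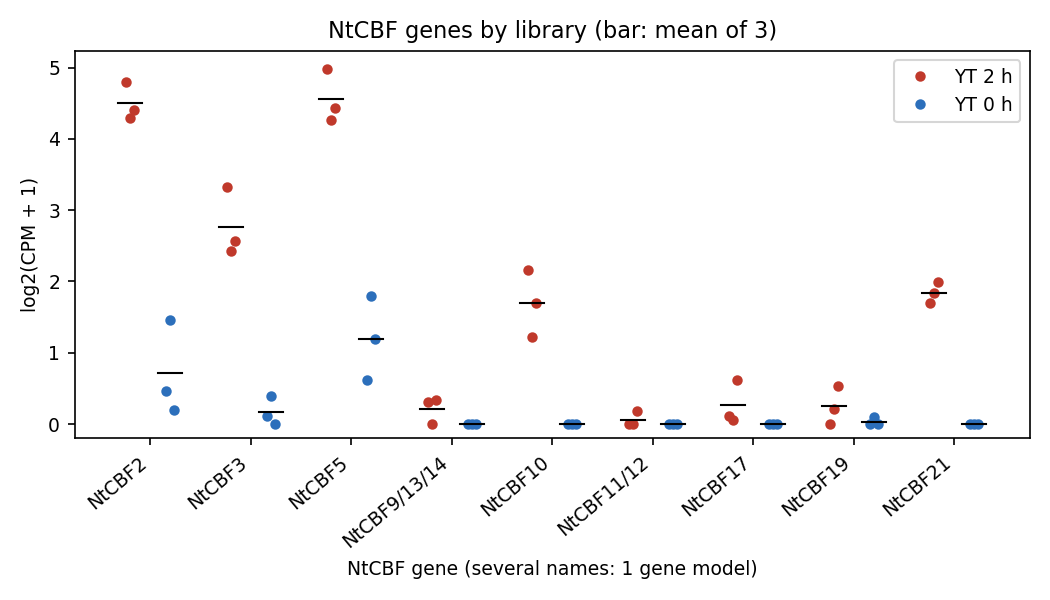
CPM of the 9 NtCBF gene models in each library, on a log2(CPM + 1) scale, with the YT 2 h libraries in red to the left of the YT 0 h libraries in blue and a bar at the mean of 3. NtCBF2, NtCBF3, NtCBF5, NtCBF10 and NtCBF21 show 2 h libraries that are separate from the 0 h libraries, whereas NtCBF11/12, NtCBF17 and NtCBF19 stay near 0 in both groups.

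Of the 9 NtCBF models, 2 were lower at 2 h than at 1 h of cold and none was higher. Over all genes, 1255 differed from YT 1 h (5.29%), 2.21% of genes being higher and 730 genes lower (3.07%), and the 1255 came to 811 without YT 2 h replicate 3. The 2 models were NtCBF9/13/14 and NtCBF11/12, with step changes of -3.01 ± 0.84 (adjusted p = 0.0204) and -5.32 ± 1.66 (adjusted p = 0.0395) on the log2 scale. NtCBF2 averaged 21.8 ± 4.34 CPM at 2 h (SD, n = 3) and had 49.4, 46.2 and 40.9 CPM at 1 h, so that the libraries did not overlap, but its step change of -1.06 ± 0.65 did not pass the test (adjusted p = 0.366). NtCBF3 had 29.2, 19.9 and 24.9 CPM at 1 h, and its step change of -2.02 ± 0.74 did not pass either (adjusted p = 0.0851). Against the same 0 h libraries, the log2 fold changes of NtCBF2 were 5.15, 5.86, 4.80, 5.23 and 5.30 for 0.5, 1, 2, 4 and 8 h of cold. NtCBF19, which did not pass at 2 h, had 3.34, 5.02, 2.73, 7.18 and 7.68.

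The 50 hub genes that the study drew from the pink module of its co-expression network responded to 2 h of cold mostly by a rise. Of these 50 genes, 31 were higher at 2 h and none was lower, beside 4.81% and 3.1% of all genes. DESeq2 called 32 higher and limma 27, both with 0 lower, and 0 had an unadjusted p under 0.05 for a fall in edgeR. All 50 had a fold change above 0, with a median log2 fold change of 1.44 beside -0.02 over all genes, and in 41 every YT 2 h library was above every YT 0 h library, as in 17.7% of all genes. Against the same 0 h libraries, 34 of the 50 were higher after 0.5 h of cold, beside 1.46% of all genes, and 46 after 1 h, beside 3.37%. After 4 h the number was 39, beside 8.73% of all genes, and after 8 h it was 36, beside 9.94%. The network was built on libraries that include these, so that the direction of the list is not independent evidence. The size of the response differed between replicates. The median CPM of the 50 genes was 34.9, 22.4 and 29.6 in YT 2 h replicates 1, 2 and 3, against 9.12, 9.91 and 12.5 in the YT 0 h replicates. Among the YT 2 h libraries, replicate 1 was highest for 39 of the 50 genes and replicate 2 was lowest for 43, whereas over all 23740 genes these held for 7493 and 8891. The part of this spread in the calls was not tested beyond leaving out each library, which left between 26 and 31 of the hub genes called.

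Abscisic acid and protein phosphatase genes of this list were higher at 2 h, both of 2. This count and the counts by role below stand beside 31 of the 50 hub genes and 4.81% of all genes. No role was tested against the rest of the list. CYP707A1 (Nitab4.5_0000532g0070), a cytochrome P450 that breaks abscisic acid down, had 130.5, 64.1 and 53.7 CPM at 2 h, against 6.06, 8.59 and 8.75 CPM at 0 h. Its libraries were well apart, and the change was 10.6-fold (log2 fold change 3.41 ± 0.53, adjusted p = 2.02e-05). A protein phosphatase 2C (Nitab4.5_0002017g0040), of a family whose members in Arabidopsis include negative regulators of abscisic acid signalling, had 107.2, 59.3 and 76.6 CPM at 2 h and 18.9, 20.9 and 25.6 CPM at 0 h. The log2 fold change was 1.9 ± 0.28 (adjusted p = 1.15e-05), without overlap.

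Calcium signalling genes were higher for 3 of 4, with a median of 1.57. The calcium-dependent protein kinase CPK7 (Nitab4.5_0002649g0020) had 76.7, 45 and 65.7 CPM at 2 h, against 13.5, 19.9 and 32.9 CPM at 0 h (log2 fold change 1.5 ± 0.40, adjusted p = 0.00789). The groups did not overlap, but the call was lost without YT 0 h replicate 1 (adjusted p = 0.0658). A calcium-binding EF-hand protein (Nitab4.5_0000207g0450) had 22.5, 12.7 and 15.4 CPM at 2 h and 3.13, 5.74 and 3.4 CPM at 0 h, a log2 fold change of 2.04 ± 0.55 (adjusted p = 0.00874), which lost its call without YT 0 h replicate 1 (adjusted p = 0.0514). A second EF-hand gene (Nitab4.5_0004384g0050) had 8.47, 3.9 and 3.48 CPM at 2 h, against 1.75, 2.18 and 2.26 CPM at 0 h, and did not pass the test (adjusted p = 0.115). It was lower at 2 h than at 1 h, when it had 23, 17.7 and 29.8 CPM (step change -2.15, adjusted p = 0.00839).

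All 3 cell wall genes of the list were higher. COBL7 (Nitab4.5_0000616g0070, chromosome 17), a COBRA-like protein of the wall, had 146.9, 110.7 and 135.3 CPM in the YT 2 h libraries, against 28, 37 and 31.6 CPM in the YT 0 h libraries. Both groups were tight and apart, with a 4.07-fold change (log2 fold change 2.02 ± 0.34, adjusted p = 6.78e-05). A second COBL7 gene (Nitab4.5_0000629g0010, chromosome 7) had 96.9, 58.7 and 84.1 CPM at 2 h and 19.2, 30.5 and 26.6 CPM at 0 h, a 3.14-fold change (adjusted p = 0.00173). The pectin-synthesis gene GAUT14 (Nitab4.5_0001637g0080) rose less, with 55.5, 43.6 and 67.1 CPM at 2 h and 24, 26.2 and 27.6 CPM at 0 h. Its log2 fold change was 1.09 ± 0.27 (adjusted p = 0.00473). It came to 0.93 without YT 2 h replicate 3 and to 0.92 with limma on log2(TPM + 1), under the limit of 1.

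Among 7 defence-related hub genes, 4 were higher, with a median of 1.64. A receptor-like protein with leucine-rich repeats (Nitab4.5_0001213g0020) had 46.6, 33.4 and 48.2 CPM at 2 h, against 7.36, 10.9 and 14.1 CPM at 0 h (3.95-fold, adjusted p = 2.08e-05). NHL10 (Nitab4.5_0001287g0070), known in Arabidopsis as a gene of pathogen response and senescence, had 40.2, 26.6 and 30.6 CPM at 2 h and 6.29, 10.4 and 7.32 CPM at 0 h (4.05-fold, adjusted p = 0.00343). The groups of both genes were separate. Among 7 enzyme and transport genes, 4 were higher with a median of 1.06, among them a glutaredoxin (Nitab4.5_0006635g0010; 2.78-fold, adjusted p = 0.00515) and the nudix hydrolase homologues Nitab4.5_0002450g0150 (3.48-fold, adjusted p = 0.000358) and Nitab4.5_0002046g0140 (3.74-fold, adjusted p = 0.00255). Both genes of membrane trafficking were higher: VPS24.1 (Nitab4.5_0001163g0120), a subunit of the complex that buds vesicles into endosomes, changed 2.33-fold, and the Rab GTPase RABA5b (Nitab4.5_0000038g0020) changed 2.80-fold. In the ubiquitin system 2 of 5 genes were higher, both RING/U-box proteins (Nitab4.5_0001105g0180, 3.18-fold, and Nitab4.5_0001021g0070, 3.22-fold). Neither of the 2 stress-associated zinc fingers of the A20/AN1 type passed the test.

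Of the 8 transcription factors among the pink hub genes, 4 were higher: NtCBF2, NtCBF3, NtCBF5 and one PAT1 gene. PAT1 (Nitab4.5_0000092g0120, chromosome 21), a GRAS factor known in Arabidopsis from phytochrome A signalling, had 23, 15.4 and 20.3 CPM at 2 h, against 6.52, 6.48 and 9.13 CPM at 0 h. The libraries did not overlap and the log2 fold change was 1.41 ± 0.47 (adjusted p = 0.0391), a call that was lost without any 1 of 5 libraries. The adjusted p was 0.128, 0.12 and 0.062 without YT 0 h replicates 1, 2 and 3, and 0.112 and 0.0898 without YT 2 h replicates 1 and 3. Limma on log2(TPM + 1) did not call this gene either (adjusted p = 0.0535). PAT1 was lower at 2 h than at 1 h, when it had 71.8, 55.8 and 61.4 CPM (step change -1.68 ± 0.46, adjusted p = 0.0162). A second PAT1 gene (Nitab4.5_0000749g0090) had 39.9, 23 and 36.4 CPM at 2 h and 15.1, 15.6 and 17.7 CPM at 0 h and missed the test at 1.04 ± 0.42 (adjusted p = 0.0935), but was called in a fit of only the libraries compared (adjusted p = 0.00554) and in that fit with a replicate block (0.00247).

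The other 3 factors did not pass the test against 0 h, and all 3 were lower than at 1 h. ERF3 (Nitab4.5_0001393g0040), an ethylene-responsive element binding factor, had 60.6, 40.7 and 47.2 CPM at 2 h and 41.8, 41.2 and 46.7 CPM at 0 h, which overlap (log2 fold change 0.20 ± 0.34, adjusted p = 0.783). It was lower than at 1 h, when it had 113.5, 93.9 and 149.9 CPM (step change -1.27, adjusted p = 0.0154). SCL13 (Nitab4.5_0000143g0040), a GRAS factor of light signalling in Arabidopsis, had 61.6, 43.1 and 46.2 CPM at 2 h, against 47.1, 35.9 and 61.4 CPM at 0 h, again with overlap. Its log2 fold change of 0.06 ± 0.28 turned to -0.11 without YT 2 h replicate 1 or YT 0 h replicate 2. It had 101.5, 105.7 and 103.5 CPM at 1 h (step change -1.04, adjusted p = 0.0164). The C2H2 zinc finger gene Nitab4.5_0002105g0060 had 18.4, 14.6 and 21.8 CPM at 2 h and 9.5, 8.98 and 12.6 CPM at 0 h, which did not pass (adjusted p = 0.133), and was lower than at 1 h (step change -1.28, adjusted p = 0.0189). Over the whole list, 18 of the 50 hub genes were lower at 2 h than at 1 h and none was higher, beside 3.07% and 2.21% of all genes, with a median step change of -1.06 beside -0.02 over all genes. In the higher direction DESeq2 also called 0, and 0 had an unadjusted p under 0.05 in edgeR.

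**Figure D3:**
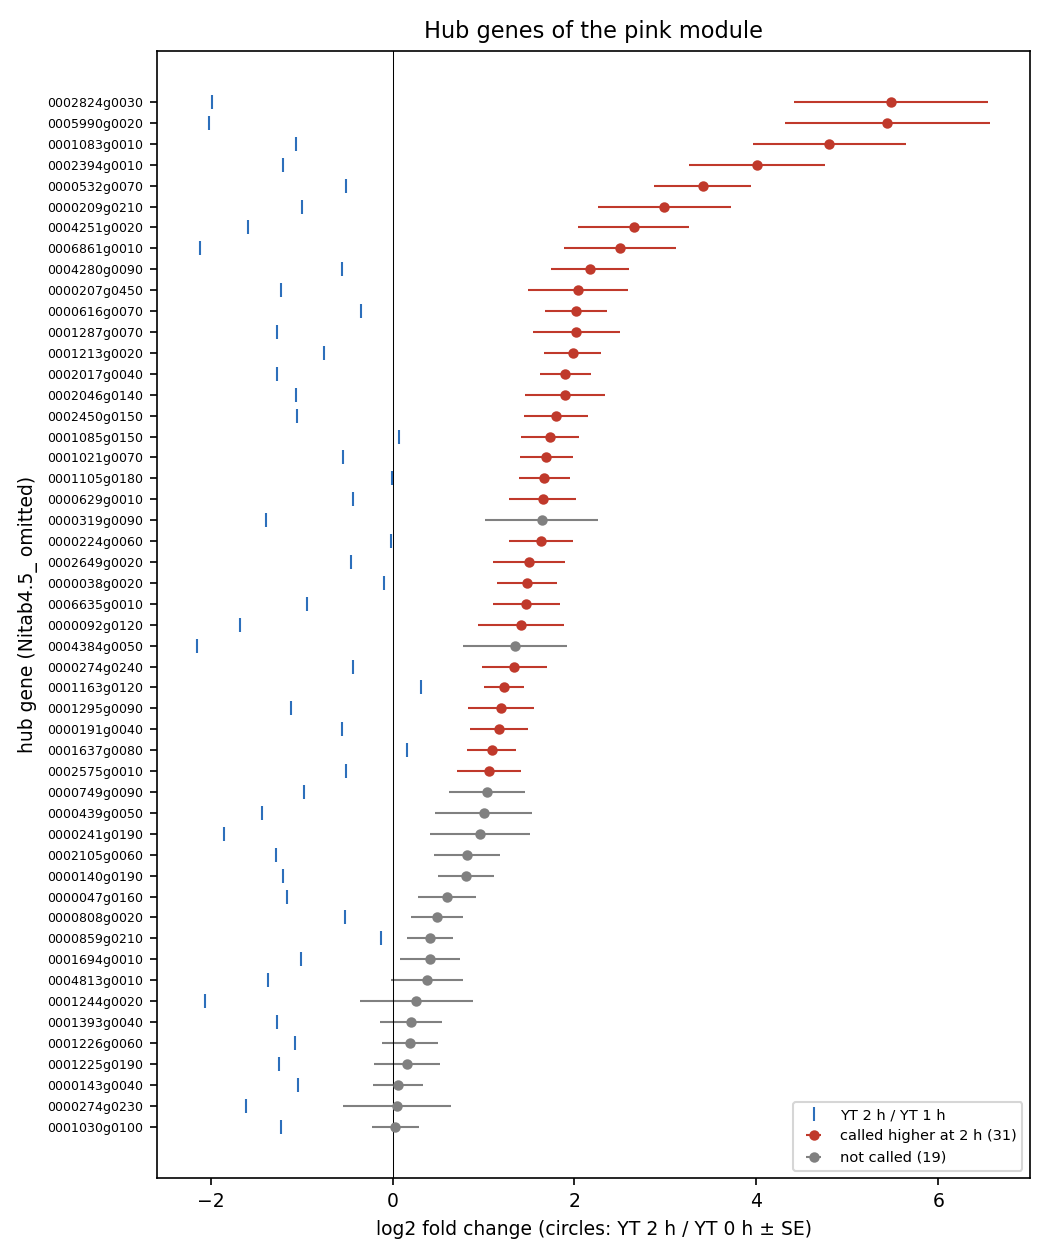
Log2 fold change of YT 2 h over YT 0 h (circles, with SE) for the 50 hub genes of the pink module, in red for the 31 called higher and in grey for the 19 not called, and of YT 2 h over YT 1 h (blue ticks) on the same x axis. All circles lie above 0, whereas most ticks lie below 0.

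In the brown module, a further set of 50 hub genes whose levels the study related to the cultivar, none was called in either direction by edgeR, with a median of -0.09. At an unadjusted p under 0.05, 1 of them was higher and 5 were lower, and DESeq2 called 1 higher and 0 lower. Of 13 tested genes with RT-qPCR primers, 3 were higher (NtCBF2, COBL7 and PAT1) and none was lower, with a median of 0.07. Both lists stand beside 4.81% higher and 3.1% lower over all genes by edgeR.

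Transcription factors listed by the study as changed at every time point in TT or in YT moved in both directions, and those factors and the kinases listed in the same way are described by family. These lists were chosen from these libraries, so that for YT their direction is not independent evidence. Of the factors on either list, 48 were higher at 2 h in YT, 14 were lower and 39 did not pass, beside 4.81% higher and 3.1% lower over all genes, shares that apply to the family counts too. Their median was 1.15 (1.10 with lower bounds for genes at the floor). Those listed for YT gave 31 higher and 8 lower of 47 (median 1.69), and those listed for TT gave 43 higher and 7 lower of 88 (median 1.16).

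AP2-EREBP factors, the family of CBF and ethylene response factors, held 18 higher and 2 lower of 26, with a median of 2.11 (1.9 with lower bounds). Nitab4.5_0000953g0020 on chromosome 13 had 43, 54 and 75 counts at 2 h and none at 0 h, at least 21.3-fold higher (adjusted p = 0.00462). In the other direction, Nitab4.5_0003665g0040 had 0, 1 and 0 counts in the YT 2 h libraries, against 17, 43 and 102 counts in the YT 0 h libraries (adjusted p = 0.00213). Nitab4.5_0001441g0050 had 0.235, 0.306 and 0.491 CPM at 2 h and 3.09, 2.5 and 4.11 CPM at 0 h (adjusted p = 0.0146), a call that was lost without YT 2 h replicate 1 or 2 (0.0677 and 0.0622).

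All 3 NAC factors were higher (median 3.57), as were 2 of 3 Tify factors (median 2.5), the family of the jasmonate repressors. MYB factors held 8 higher and 2 lower of 14 (median 1.33), with Nitab4.5_0000005g0090 at 3.32 (adjusted p = 1.9e-09) and Nitab4.5_0001889g0060 at -2.62 (adjusted p = 0.00029). WRKY factors, many of which act in defence and stress, held 5 higher and 1 lower of 15 (median 0.99). GRAS factors held 3 higher of 6. C2H2 zinc fingers held 1 higher of 6, and 5 of these 6 were lower at 2 h than at 1 h, beside 3.07% of all genes.

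Falls outnumbered rises among bHLH and C2C2-Dof factors, and also in the small HB (1 lower of 3) and zf-HD (its single member) families. Of 7 bHLH factors, 4 were lower and 2 higher, with a median of -1.44. The bHLH gene Nitab4.5_0000300g0100 had 3.92, 2.57 and 5 CPM at 2 h, against 38.1, 38.2 and 24.8 CPM at 0 h, a log2 fold change of -3.14 ± 0.45 (adjusted p = 5.4e-06). Of 4 C2C2-Dof factors, a plant-specific zinc finger family, 2 were lower. Nitab4.5_0000605g0210 had 0.627, 0.23 and 0.178 CPM at 2 h and 5.07, 7.29 and 6.04 CPM at 0 h (-4.12 ± 0.84, adjusted p = 0.000655), and Nitab4.5_0001923g0010 had 1.06, 0.919 and 0 CPM at 2 h and 6.26, 5.42 and 7.54 CPM at 0 h (-3.25 ± 0.87, adjusted p = 0.00855). In all 3 genes every 2 h library was below every 0 h library.

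Among the factors that differed between the cultivars at every time point, 1 of 14 was higher and none was lower in YT at 2 h. With so few members, these counts lie near the shares over all genes, 4.81% higher and 3.1% lower. The factor called higher was the bHLH gene Nitab4.5_0001740g0080, with 61.1, 57.9 and 73.8 CPM at 2 h and 13.1, 10.9 and 19.7 CPM at 0 h (log2 fold change 2.14 ± 0.37, adjusted p = 7.59e-05). It was also higher than at 1 h (step change 1.27, adjusted p = 0.0191), and its log2 fold changes against 0 h were 0.42, 0.87, 0.61 and -0.48 for 0.5, 1, 4 and 8 h of cold. None of the 6 kinases of this kind was called by edgeR, DESeq2 or limma, and 2 had an unadjusted p under 0.05 for a fall in edgeR. For the 14 factors, limma called 3 lower and DESeq2 called 0.

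Of the 79 protein kinases listed, 50 were higher and 2 lower, with a median of 1.21, beside 4.81% higher and 3.1% lower over all genes. Of those listed for YT, 18 of 19 were higher (median 1.54), and of those listed for TT, 49 were higher and 2 lower of 78 (median 1.21). Leaving out YT 2 h replicate 1 brought the 18 down to 10, and leaving out YT 0 h replicate 1 or 2 brought it to 11 each. With limma on log2(TPM + 1) the 18 came to 11 and the 49 to 31. All 6 calcium-dependent protein kinases were higher, with log2 fold changes from 1.03 to 2.74, as were all 4 SNF1-related kinases, regulators of energy and abscisic acid responses. The SNF1-related kinase Nitab4.5_0001478g0040 had 320.7, 352.5 and 488.9 CPM in the YT 2 h libraries, against 27.4, 23.8 and 25.4 CPM in the YT 0 h libraries. This 15.2-fold change (log2 fold change 3.92 ± 0.26, adjusted p = 2.82e-12) went with a further rise over 1 h (step change 1.17, adjusted p = 0.00103).

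A MAP kinase (Nitab4.5_0000022g0300) had 535.6, 310.1 and 491.5 CPM at 2 h and 35.4, 43 and 57.8 CPM at 0 h (9.81-fold, adjusted p = 4.94e-09). MAP kinases relay signals from receptors, and both MAP3K genes of the list were higher too. A Crinkly 4-like kinase (Nitab4.5_0000365g0130) had 23.6, 7.73 and 12.9 CPM at 2 h, against 0.992, 1.87 and 0.717 CPM at 0 h (12.3-fold, adjusted p = 0.00302), and was lower than at 1 h (step change -2.28, adjusted p = 0.0416). All 3 CRPK1-like kinases and both GSK3/Shaggy-like kinases were higher, and 6 of 10 DUF26 receptor kinases and 6 of 9 receptor-like cytoplasmic kinases VII were. The RLCK VII gene Nitab4.5_0001981g0040 had 57.3, 38.2 and 44 CPM at 2 h and 6.22, 5.99 and 7.47 CPM at 0 h (7.09-fold, adjusted p = 2.6e-07). The 2 that fell were of the IRE/NPH/PI dependent/S6 group: Nitab4.5_0001612g0080 had 6.15, 7.54 and 6.87 CPM at 2 h, against 19.8, 18.4 and 20.7 CPM at 0 h (adjusted p = 0.00289), and Nitab4.5_0002278g0010 had 5.61, 7.73 and 7.4 CPM at 2 h, against 16.1, 17.6 and 13.1 CPM at 0 h (adjusted p = 0.0333). The second call was lost without any 1 of 5 libraries, with adjusted p of 0.0799 and 0.0975 without YT 0 h replicates 1 and 2 and of 0.126, 0.0643 and 0.0767 without YT 2 h replicates 1, 2 and 3. None of the 3 legume lectin kinases was called against 0 h, and all 3 were lower than at 1 h, beside 3.07% of all genes.

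The largest rises were taken among called genes that averaged 10 CPM or more and had non-overlapping libraries, and they belonged to genes that the sources used here do not describe. For 7 of the 8, the change against 0 h was not called at 0.5 or 1 h, with log2 fold changes between -1.04 and 0.41. A run of 3 neighbours on chromosome 14 held the largest values. Nitab4.5_0000982g0200 (109835123 to 109846567, minus strand) had 509.4, 428.6 and 561.8 CPM in the YT 2 h libraries, against 3.51, 6.23 and 2.94 CPM in the YT 0 h libraries (117.8-fold, log2 fold change 6.88 ± 0.51, adjusted p = 2.25e-11). Nitab4.5_0000982g0190 (109834017 to 109834820) had 201.1, 189 and 260.5 CPM at 2 h and 1.64, 2.61 and 1.85 CPM at 0 h, a log2 fold change of 6.73 ± 0.55. Nitab4.5_0000982g0170 (109803201 to 109804004) had 389.5, 322.7 and 453.5 CPM at 2 h and 3.01, 5.18 and 3.21 CPM at 0 h, a log2 fold change of 6.67 ± 0.47. The last 2 and Nitab4.5_0000495g0040 elsewhere on chromosome 14 had the same annotated exon length of 804 bases. Whether they are copies of one gene was not tested, and reads shared by near-identical copies were not counted.

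Nitab4.5_0001229g0120 (chromosome 21) had 2159.8, 2051.7 and 2512.5 CPM at 2 h, against 22.1, 35.2 and 20.8 CPM at 0 h. This was a change of 86.1-fold (log2 fold change 6.43 ± 0.32, adjusted p = 4.81e-15), and its mean at 1 h was 24.9 CPM. Nitab4.5_0000297g0150 (chromosome 2) had 1736.3, 1664.0 and 2095.5 CPM at 2 h and 31, 39.6 and 27.7 CPM at 0 h (55.9-fold, adjusted p = 8.5e-13). Nitab4.5_0000495g0040 had 606.1, 537.9 and 645.0 CPM at 2 h, against 9.65, 14.1 and 9.32 CPM at 0 h (54.1-fold, adjusted p = 1.1e-10). Nitab4.5_0000639g0060 (chromosome 21) had 1284.2, 1247.7 and 1582.0 CPM at 2 h and 25.8, 33.9 and 22.7 CPM at 0 h (49.9-fold, adjusted p = 4.56e-14). Within these genes the replicates at 2 h stayed close to each other, whereas at 0 h the second replicate was the highest in each gene. The remaining gene, Nitab4.5_0007306g0010 on chromosome 17, had risen earlier: it had 49.7, 65.5 and 80.4 CPM at 2 h, 16.8, 8.48 and 13.8 CPM at 1 h, and 1.98, 1.2 and 0.679 CPM at 0 h (50.5-fold, adjusted p = 9.08e-10). All 8 genes were higher than at 1 h, with step changes from 2.32 to 7.77. The log2 fold changes of Nitab4.5_0000982g0200 against the shared 0 h libraries were 0.41, -0.34, 6.88, 5.63 and 6.37 for 0.5, 1, 2, 4 and 8 h of cold.

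**Figure D4:**
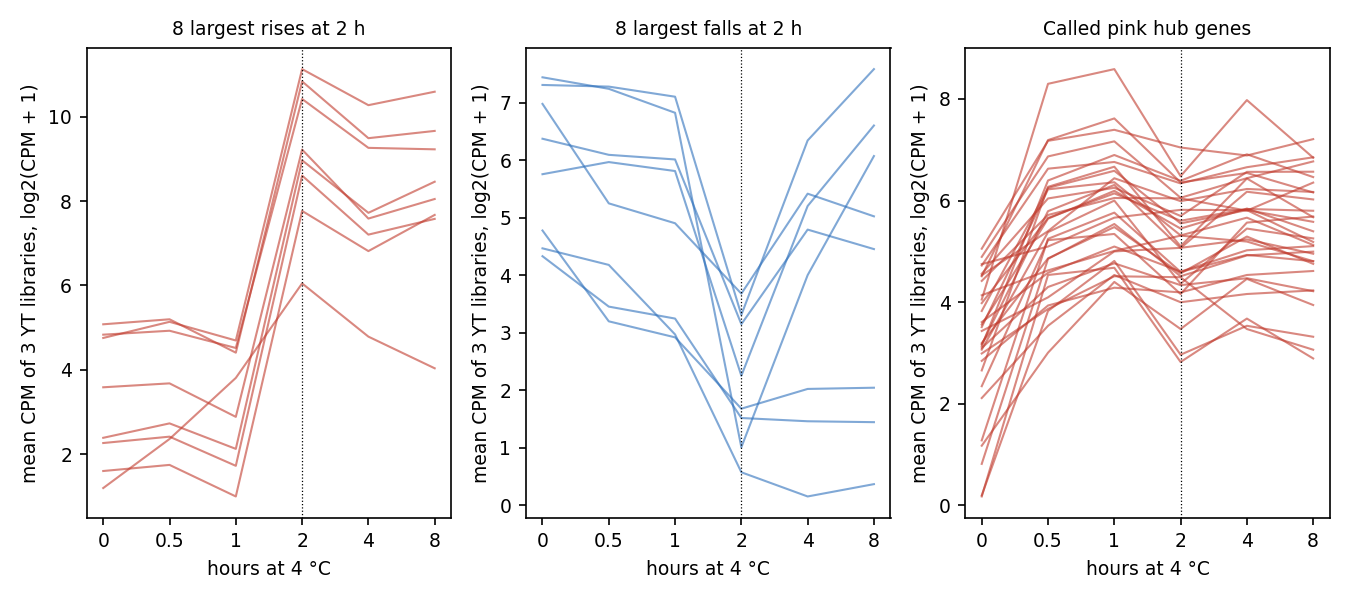
Mean level of 3 YT libraries, as log2(CPM + 1), against hours at 4 °C for the 8 largest rises, the 8 largest falls and the called hub genes of the pink module. Of the 8 largest rises, 7 run level to 1 h and step up at 2 h, whereas most of the called hub genes are already above their 0 h level at 1 h.

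Of the 8 largest falls under the same rule, 6 had a higher mean at both 4 and 8 h than at 2 h, and 2 did not. Nitab4.5_0000175g0140 (chromosome 12, 9222351 to 9226385) had 1.10, 0.919 and 1.03 CPM in the YT 2 h libraries, against 186.9, 154.3 and 176.5 CPM in the YT 0 h libraries. The log2 fold change was -7.40 ± 0.27 (adjusted p = 1.92e-18), a 169.4-fold lower level, and the mean at 1 h was 112.2 CPM. Its mean was 15 CPM at 4 h and 66.2 CPM at 8 h. Nitab4.5_0001229g0040 (chromosome 21) had 6.15, 8.23 and 12.4 CPM at 2 h and 152.5, 146.5 and 173.0 CPM at 0 h (-4.14 ± 0.22, adjusted p = 1.3e-14), with a mean of 190.6 CPM at 8 h. Nitab4.5_0000640g0140 (chromosome 18) had 2.59, 5.13 and 3.57 CPM at 2 h and 54.4, 48.6 and 56.0 CPM at 0 h (-3.81 ± 0.21, adjusted p = 4.56e-14), with a mean of 96.1 CPM at 8 h. In these 3 genes the mean at 2 h was the lowest of the 6 times, as it was in Nitab4.5_0000204g0120, Nitab4.5_0000680g0150 and Nitab4.5_0000563g0020.

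The mean of the other 5 at 8 h stayed below that at 0 h, as did that of Nitab4.5_0000175g0140 (66.2 CPM at 8 h, 172.6 CPM at 0 h). Nitab4.5_0001229g0010 (chromosome 21) had 1.06, 0 and 0.401 CPM at 2 h and 25.6, 17.3 and 20.4 CPM at 0 h (-5.43 ± 0.56, adjusted p = 2.06e-08), and its means were 0.111 CPM at 4 h and 0.289 CPM at 8 h. Nitab4.5_0000204g0120 and Nitab4.5_0000636g0130, both on chromosome 23, had log2 fold changes of -3.58 and -3.36 at 2 h, and of -3.08 and -3.46 at 8 h. For Nitab4.5_0000680g0150 (chromosome 2) and Nitab4.5_0000563g0020 (chromosome 19) the values were -3.41 and -3.38 at 2 h, and -1.99 and -1.97 at 8 h. None of the 8 falls had overlapping groups, as the rule required.

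Neighbouring genes were at times called together. Along the chromosomes, 15 runs of at least 3 neighbouring tested genes were called in the same direction, 11 of them higher and 4 lower, with 46 genes in all and at most 4 in a run. These 46 were among 1879 called genes of 23740 tested, with 4.81% of all genes higher and 3.1% lower. Whether such runs were more frequent than these shares alone would give was not tested. NtCBF3 and NtCBF2 formed such a run on chromosome 4 with Nitab4.5_0001083g0020 (55380253 to 55385572), which had 23.8, 26.6 and 34 CPM at 2 h and 7.90, 5.25 and 6.26 CPM at 0 h (log2 fold change 2.12 ± 0.21, adjusted p = 6.49e-09). NtCBF5 lay in another on chromosome 6 with Nitab4.5_0004843g0010 (1.29 ± 0.17) and Nitab4.5_0002394g0030 (1.19 ± 0.21). A run of falls on chromosome 4 held Nitab4.5_0001383g0170 (-3.11 ± 0.28), Nitab4.5_0000072g0590 (-2.99 ± 0.35) and Nitab4.5_0000072g0610 (-2.06 ± 0.36).

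By absolute level per gene length, the largest rises were those of genes already highly expressed at 0 h and of genes that came from a low level. TPM is the authors' unit of transcript abundance scaled by gene length, used here to compare genes. Nitab4.5_0000335g0220 (chromosome 2) had 7839.1, 6989.0 and 9733.8 TPM at 2 h, against 1877.0, 2196.0 and 1702.3 TPM at 0 h. Its log2 fold change on counts was 2.24 ± 0.27 (adjusted p = 4.66e-07). Nitab4.5_0000313g0040 (chromosome 9) had 6621.4, 6247.0 and 8741.7 TPM at 2 h and 2876.4, 2763.4 and 2804.9 TPM at 0 h (1.51 ± 0.24, adjusted p = 3.25e-05). Nitab4.5_0003757g0140 (chromosome 22) had 3102.3, 3086.0 and 4381.7 TPM at 2 h and 697.6, 692.2 and 527.7 TPM at 0 h (2.38 ± 0.26, adjusted p = 5.96e-08). In each, the third 2 h replicate was the highest and the groups did not overlap. Nitab4.5_0000441g0070 (chromosome 2) joined this set from a low level, with 2549.9, 2259.0 and 2827.7 TPM at 2 h and 55.1, 83.5 and 59.6 TPM at 0 h (42.4-fold), as did Nitab4.5_0001229g0120 and Nitab4.5_0000297g0150.

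Of the 6 largest falls in TPM, 3 varied widely among replicates. Nitab4.5_0000180g0140 (chromosome 14) had 2393.0, 982.3 and 1942.9 TPM at 2 h, against 4132.5, 3758.5 and 6850.4 TPM at 0 h (-1.31 ± 0.34, adjusted p = 0.00767). The call was lost without YT 0 h replicate 3 (adjusted p = 0.0834) and without YT 2 h replicate 2 (0.0705). Nitab4.5_0002218g0010 (chromosome 22) followed the same order of libraries, with 1656.0, 634.5 and 1327.6 TPM at 2 h and 3022.9, 2839.3 and 5132.7 TPM at 0 h (-1.44 ± 0.34, adjusted p = 0.00341). Nitab4.5_0000309g0200 (chromosome 14) had 1153.3, 247.9 and 369.4 TPM at 2 h and 1855.3, 1068.6 and 2763.5 TPM at 0 h, and its groups overlapped. Its call (-1.46 ± 0.50, adjusted p = 0.0433) was lost in a fit of only the libraries compared (0.0944), with a replicate block (0.0623) and without any 1 of 4 libraries, with adjusted p of 0.0956 and 0.213 without YT 0 h replicates 1 and 3 and of 0.214 and 0.17 without YT 2 h replicates 2 and 3. The other 3 had no overlap between the groups. Nitab4.5_0001079g0100 was the tightest at 2 h, with 290.1, 299.9 and 301.5 TPM, against 1169.6, 1038.6 and 1337.3 TPM at 0 h (-1.86 ± 0.37, adjusted p = 0.000509). Nitab4.5_0000143g0170 had 1392.7, 1346.8 and 849.7 TPM at 2 h and 3006.9, 2572.4 and 3388.8 TPM at 0 h (-1.22 ± 0.30, adjusted p = 0.00435), and Nitab4.5_0001383g0170 had 73.1, 74.7 and 99.3 TPM at 2 h and 730.6, 702.3 and 937.6 TPM at 0 h.

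The change at 2 h was then set against that of the cold-susceptible cultivar by testing the difference itself, (YT 2 h minus YT 0 h) minus (TT 2 h minus TT 0 h). This difference passed the same thresholds for 470 of 23740 genes (1.98%), 236 of them positive (0.994%) and 234 negative (0.986%). The number depended on single libraries: leaving out replicate 3 of YT 0 h gave 83, replicate 1 of YT 0 h 271, replicate 2 of YT 2 h 125, replicates 1 and 3 of TT 0 h 131 and 739, and replicates 1 and 3 of TT 2 h 897 and 222, each left out alone. None of the 9 NtCBF genes was among them by edgeR or DESeq2, and 1 had an unadjusted p under 0.05 for a lower change in YT. Of the pink hub genes, 1 was by edgeR (4 by DESeq2): the phosphatase 2C gene Nitab4.5_0002017g0040 had 107.2, 59.3 and 76.6 CPM in YT at 2 h and 18.9, 20.9 and 25.6 CPM in YT at 0 h, and in TT 141.0, 242.5 and 138.8 CPM at 2 h and 12.9, 13.9 and 19 CPM at 0 h. The change in YT was smaller by 1.61 ± 0.39 on the log2 scale (difference -1.61, adjusted p = 0.0258). For NtCBF10 and NtCBF21, which had no counts in YT at 0 h, the SE of the difference was 2.32 and 4.78. The test could hardly call such genes, so that the lack of calls does not show equal changes in the cultivars. NtCBF5 had a difference of -2.54 ± 1.16 (adjusted p = 0.217), whereas the median over the 9 NtCBF genes was 0.37.

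The listed factors and kinases differed in the negative direction where they were called. Of those listed for TT, 7 of 88 factors and 7 of 78 kinases had a smaller or more negative log2 fold change in YT and none a larger one, with median differences of -0.76 and -0.81 beside -0.035 over all genes. Of those listed for YT, 3 of 47 factors and 2 of 19 kinases did, and again none had a larger one. In the positive direction DESeq2 called 0 in each of these 4 lists, and 0 had an unadjusted p under 0.05 in edgeR. DESeq2 called 12 and 15 of the TT lists and 6 and 3 of the YT lists negative, factors before kinases. The lists were drawn from the cold responses of these same TT and YT libraries, so that these counts are a description.

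Of the largest rises, 5 differed between the cultivars by a higher fold change in YT. They had been picked for the size of their change in YT, which is 1 term of this difference, and their calls passed in between 8 and 17 of 18 alternatives. Nitab4.5_0001229g0120 had 2159.8, 2051.7 and 2512.5 CPM in YT at 2 h and 22.1, 35.2 and 20.8 CPM in YT at 0 h. In TT it had 2741.2, 4562.3 and 3252.9 CPM at 2 h and 166.8, 134.2 and 119.7 CPM at 0 h. The difference was 1.78 ± 0.36 (adjusted p = 0.00904), and the YT libraries were below the TT libraries at both times. Nitab4.5_0000982g0190 had 201.1, 189.0 and 260.5 CPM in YT at 2 h and 1.64, 2.61 and 1.85 CPM in YT at 0 h, and in TT 196.0, 199.3 and 238.6 CPM at 2 h and 11.8, 13.8 and 10.2 CPM at 0 h. The levels at 2 h overlapped between the cultivars, whereas those at 0 h did not, and the difference was 2.58 ± 0.64 (adjusted p = 0.0273). Among the falls, Nitab4.5_0001383g0170 reached 36.6, 35.5 and 53.2 CPM in YT at 2 h and 337.8, 307.8 and 434.5 CPM in YT at 0 h, and in TT 25.4, 22.1 and 22.2 CPM at 2 h and 544.2, 676.0 and 557.9 CPM at 0 h (difference 1.57 ± 0.37, adjusted p = 0.0236).

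**Figure D5:**
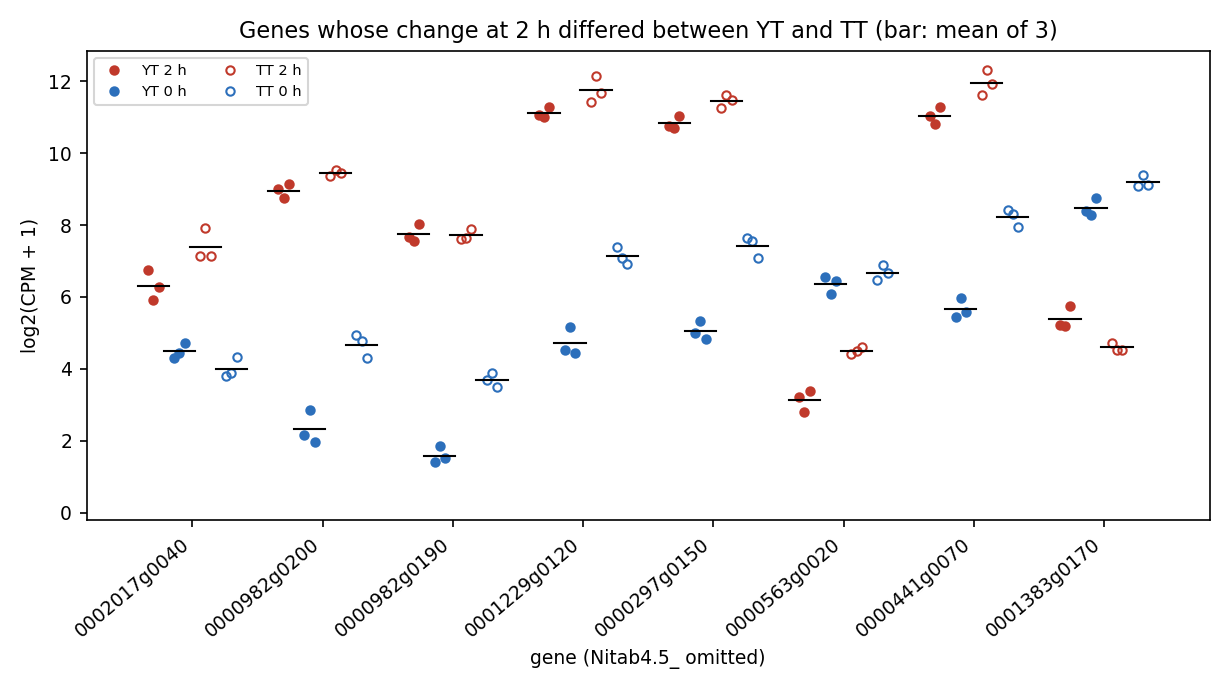
Level of the 8 named genes whose change at 2 h differed between the cultivars, as log2(CPM + 1) in each library, with YT as filled and TT as open circles, 2 h in red and 0 h in blue, and a bar at the mean of 3. In the 5 rising genes of higher fold change in YT, the filled blue YT 0 h circles lie below the open blue TT 0 h circles.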

How the data were processed

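RNA of tobacco leaves was sequenced in 36 libraries, of which the 3 YT 2 h and 3 YT 0 h libraries, grouped by their titles, are compared here. Per the file headers and the methods, the authors trimmed reads with Trim Galore 0.6.4 after FastQC 0.11.5, aligned them with HISAT2 2.0.5, removed poorly mapped reads with SAMtools 1.9 and counted them with featureCounts 1.6.4 on Nitab-v4.5 gene models, without strand or multi-mapping reads. The deposited counts are raw read counts per gene, and the deposited TPM values came from StringTie 1.3.4d.

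Counts of 35519 genes were tested with edgeR 4.0.16 (R 4.3.3) by quasi-likelihood, with TMM scaling, a filter on low counts that kept 23740 genes, a term for each of the 12 groups and Benjamini-Hochberg adjustment over all genes tested. All 36 libraries shared one estimate of the spread. The thresholds, an absolute log2 fold change above 1 and an adjusted p under 0.05, follow the study's methods. The study used DESeq2, which here is an alternative (1.42.0). Further alternatives were limma 3.58.1 on log2(TPM + 1), DESeq2 size factors, no filter, only the libraries compared, a replicate block, no limit on the fold and leaving out each library. On simulated data for this comparison, 18, 44, 49 and 49 of 50 genes changed by 2, 4, 8 and 16-fold were recovered, with 5 false calls among 23540 unchanged genes. The changed genes were drawn only from those averaging above 1 CPM. A 2-fold change lies at the limit for a call, so that the 18 is not a measure of power alone.

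Named genes were all NtCBF genes, pink hub genes that are transcription factors or called, called brown hub genes, the 8 largest rises and 8 largest falls among called genes averaging 10 CPM or more without overlapping libraries, the 6 called genes with the largest TPM difference in each direction, the 3 most changed called members of each transcription factor and kinase list in each direction, and named genes in runs of at least 3 neighbours. Members and lists were chosen with earlier results of these data known. Other family members are named as examples chosen after their values were seen. Of the 21 NtCBF names, 11 matched a RefSeq gene. Where replicates are not separate plants, p-values cover only the spread between libraries.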

Additional observations from a re-analysis of the deposited data

Results flagged for a closer look

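The change at 2 h differed between the cultivars, by the test of the difference itself, for 8 of the 81 named genes tested. Over all genes this held for 1.98%. All 8 had been named by rules that used their change in YT, which is 1 term of this difference. Their adjusted p values are therefore a description. Positive differences mean a larger log2 fold change in YT. Among the rises these were Nitab4.5_0000982g0190 (YT 6.73, TT 4.15; difference 2.58, adjusted p = 0.0273), Nitab4.5_0000982g0200 (YT 6.88, TT 4.80; difference 2.08, adjusted p = 0.0454) and Nitab4.5_0001229g0120 (YT 6.43, TT 4.65; difference 1.78, adjusted p = 0.00904). Further rises of this kind were Nitab4.5_0000297g0150 (YT 5.81, TT 4.03; difference 1.78, adjusted p = 0.0239) and Nitab4.5_0000441g0070 (YT 5.40, TT 3.73; difference 1.67, adjusted p = 0.037). In all 5 rises every YT 0 h library was below every TT 0 h library. The phosphatase 2C gene Nitab4.5_0002017g0040 rose less in YT (YT 1.9, TT 3.51; difference -1.61, adjusted p = 0.0258). Among the falls, Nitab4.5_0000563g0020 fell further in YT (YT -3.38, TT -2.24; difference -1.14, adjusted p = 0.0338), and Nitab4.5_0001383g0170 fell less in YT (YT -3.11, TT -4.67; difference 1.57, adjusted p = 0.0236).

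These calls were sensitive to the setting. In the order given they passed the test in 12, 8, 17, 13, 9, 12, 12 and 13 of 18 alternatives. The adjusted p ranged from 0.000188 to 0.0518 for Nitab4.5_0001229g0120 and from 0.00848 to 0.159 for Nitab4.5_0000982g0200, and no difference changed its sign.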

How the results depend on the processing

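With each library left out, between 974 and 1111 genes were higher at 2 h in YT and between 544 and 739 were lower. The other settings gave from 834 (limma) to 1266 (DESeq2) genes higher and from 699 to 871 lower, except that 2009 were higher and 1669 lower with no limit on the fold change. A replicate block gave 1125 higher and 721 lower, against 1142 and 737 without it. The main fit did not take the replicate numbers as pairs. Deviations of same-numbered YT 2 h and YT 0 h libraries correlated at 0, 0.233 and 0.098, those of other-numbered ones at -0.231 to 0.13. The second principal component of the 6 libraries (16.33% of the variance) placed replicates 1, 2 and 3 at -18.66, 48.33 and -35.84 at 2 h. At 0 h they lay at 8.36, 40.63 and -42.82, so that replicates 2 and 3 kept their sides. Whether replicates of a number share a source was not tested beyond the replicate block.

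Against 1 h, the 1255 calls ranged from 811 (without YT 2 h replicate 3) to 1198 with a library left out, and the replicate block gave 1253. For the difference between the cultivars, the 470 calls ranged from 83 (without YT 0 h replicate 3) to 897 (without TT 2 h replicate 1), DESeq2 gave 922 and the replicate block 504.

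Of the 81 named genes tested, 74 were called, and 59 of these were called under each of 13 alternatives. The only reversal was that of SCL13 (Nitab4.5_0000143g0040), not called at 0.06, which came to -0.01 with limma and ranged from -0.11 (without YT 0 h replicate 2 or YT 2 h replicate 1) to 0.28 with a library left out. Pink hub genes called higher stayed between 26 and 34 of 50, and NtCBF genes between 4 and 7 of 9. TT kinases called higher fell to 31 with limma, against 49. The replicate block ended the call of Nitab4.5_0000309g0200 among the named genes and of no other. Causes of these shifts were not tested.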
